A study of Homo sapiens with 8 samples.

Results

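The genes described here are 10 members of the Polycomb system and its partners, namely EZH1, EZH2, SUZ12 and JARID2 of Polycomb repressive complex PRC2, the ASXL family (ASXL1, ASXL2 and ASXL3), BCOR with its relative BCORL1, and CBX2. They were chosen by name out of 19955 protein-coding genes, with earlier results of these data known. Their YTHDF2 binding positions are the distinct positions of the deposited list that lie inside each gene's GRCh38 span on its own strand. There were 100 such positions among the 37613 in the list, in 7 of the 10 genes. YTHDF2 is a cytoplasmic reader of N6-methyladenosine (m6A), a methylated base of mRNA, and brings mRNA decay factors to the transcripts it binds.

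The positions come from iCLIP2, in which ultraviolet light links a protein to the RNA it touches and reverse transcription stops at the linked nucleotide. Wild-type HEK293T cells, a cell line made from human embryonic kidney, were used throughout. The 8 libraries fall into 4 from cells treated for 12 h with 20 µM STM2457, an inhibitor of the m6A methyltransferase METTL3, dissolved in 0.2% DMSO, and 4 from cells given 0.2% DMSO alone for 12 h. The deposited list gives 1 score per row and names no library. STM2457 and DMSO were therefore not compared, the spread between replicates and the read depth are unknown, and every comparison below is a description of positions and genes with no test.

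Polycomb complexes keep developmental genes silent through marks on histones. PRC2 methylates a lysine of histone H3, with EZH1 or EZH2 as the catalytic subunit, SUZ12 as the scaffold and JARID2 as an accessory subunit that helps bring the complex to chromatin. PRC1 places ubiquitin on histone H2A. CBX2 is a chromodomain subunit of its canonical form, which recognises the PRC2 mark and compacts chromatin, whereas BCOR and BCORL1 belong to a variant form built around PCGF1. The ASXL proteins are cofactors of BAP1, the enzyme that removes ubiquitin from H2A. What follows concerns the mRNAs of these genes as targets of YTHDF2, not the activity of the proteins.

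The positions were spread very unevenly over the 10 genes. BCOR held 25, ASXL1 24, BCORL1 17, CBX2 16 and ASXL2 12, and these 5 genes together carried 94 of the 100. JARID2 held 5 and SUZ12 1, so that the 4 PRC2 genes carried 6 in all. No position was listed in EZH1, EZH2 or ASXL3. At least 1 position was thus found in 7 of 10 genes, against 38.9% of all protein-coding genes, and 10 or more positions in 5 of 10, against 4.95% of all protein-coding genes. Because the genes were chosen with earlier results known, these shares only describe them and cannot be read as an enrichment. The median over genes with any position was 3 (quartiles 2 and 6). The expression of each gene was not measured here, and a gene with few transcripts in these cells cannot be told apart from a gene whose transcripts are seldom bound.

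**Figure D1:**
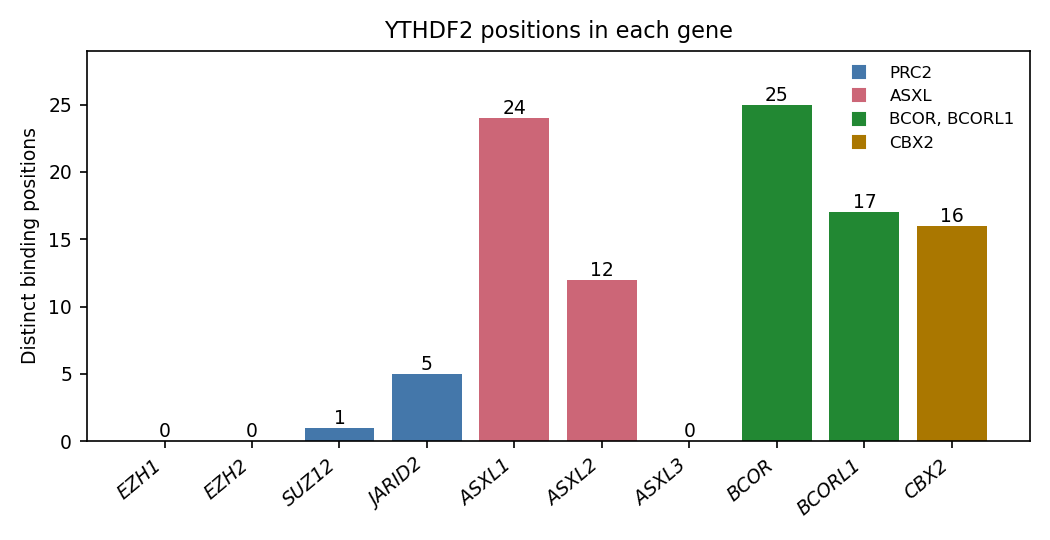
Number of distinct YTHDF2 positions (vertical axis) in each of the 10 genes, with bars coloured by complex or family. ASXL1, ASXL2, BCOR, BCORL1 and CBX2 have 12 to 25 positions each, while EZH1, EZH2 and ASXL3 have 0, SUZ12 has 1 and JARID2 has 5.

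In the ASXL family the counts were 24, 12 and 0 for ASXL1, ASXL2 and ASXL3, whereas BCOR and BCORL1 were closer to each other at 25 and 17. Per kb of genomic span, which includes introns, the order changed. CBX2, the shortest of the 10 genes at 10.7 kb, had 1.5 positions per kb. ASXL1 followed with 0.296 over 81.0 kb, then BCORL1 with 0.219 over 77.8 kb, BCOR with 0.198 over 126 kb and ASXL2 with 0.0829 over 145 kb. JARID2 had 0.0181 per kb over 276 kb and SUZ12 0.0156 per kb over 64.0 kb. The median of all genes with a position was 0.109 per kb, so CBX2, ASXL1, BCORL1 and BCOR lay above it and ASXL2, JARID2 and SUZ12 below it. By number of positions, 45 genes of the genome had more than BCOR and 57 more than ASXL1, while 179 had more than BCORL1, 216 more than CBX2 and 490 more than ASXL2.

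Among the PRC2 genes, the catalytic subunits EZH1 and EZH2 had 0 positions over spans of 44.8 and 76.9 kb. The single position of SUZ12 lay on chromosome 17 at 31998997 (GRCh38, plus strand), 2.04 kb before the 3′ end of the gene, with a score of 0.0588. The score is the authors' own value per position on a scale not given in the sources used here, and it serves only to rank positions within the list; 0.449% of all positions scored lower than this one. JARID2 had positions on chromosome 6 (plus strand) at 15496228, 15496674, 15500975, 15520136 and 15520945, with scores of 19.5, 3.58, 7.89, 5.52 and 3.06. Only the first of these 5 exceeded the list's median score of 8.67. All 5 lay in the last 10% of a gene of 276 kb, the first of them 250 kb from the 5′ end and the last 1.10 kb from the 3′ end.

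In ASXL1, 22 of the 24 positions formed a single run on chromosome 20 (plus strand), from 32431629 to 32438825, taking as a run any series of positions with gaps of at most 2000 nt. This run covered 7.20 kb and began 73.3 kb from the 5′ end of the gene, ending 0.494 kb before its 3′ end. The remaining 2 positions stood apart near the 5′ end, at 32366422 and 32366452, with scores of 4.51 and 0.0491. Scores in ASXL1 went from 0.0491 to 99.9, with a median of 12.2. The highest lay at 32435071, followed by 71.0 at 32433564 and 59.2 at 32437148, so the 3 highest were not next to each other. Low scores lay between them, with 1.03 at 32435463, and 3′ of them, with 1.37 at 32437656. The run's lowest score, 0.0874, was at its last position, 32438825.

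All 12 positions of ASXL2 fell within 1.83 kb on chromosome 2 (minus strand), from 25742318 to 25744147, which is 1.26% of the gene's span. Unlike those of ASXL1, they stayed clear of the 3′ end of the annotated gene, the nearest lying 8.57 kb before it. Scores ran from 1.83 to 24.0 with a median of 11.8, and no position reached the levels of the highest ones in ASXL1. The 3 positions at the 5′ end of the group, at 25744147, 25744137 and 25744089, scored 16.8, 22.8 and 24.0. They were separated from the other 9 by a gap of 612 nt, the largest in the gene.

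**Figure D2:**
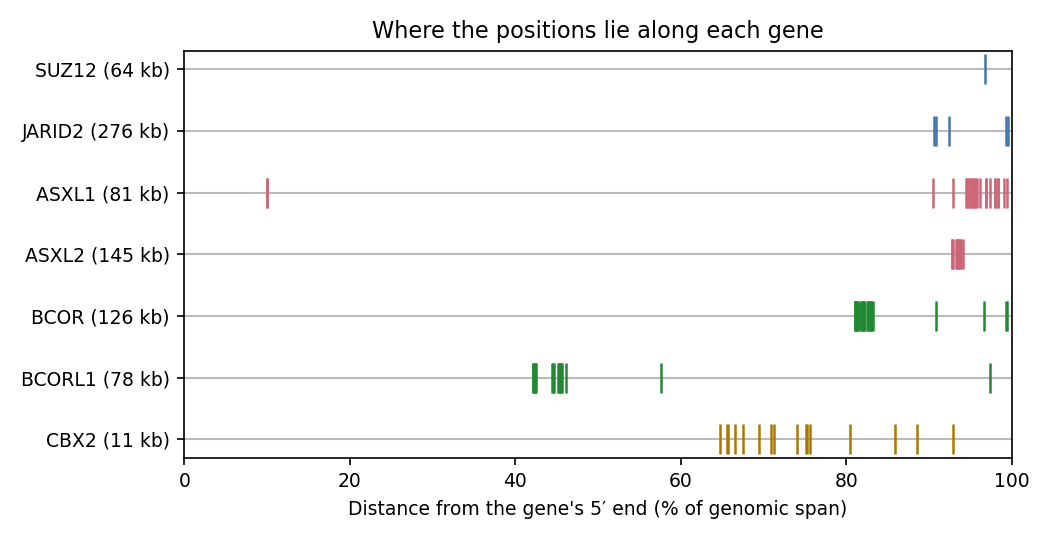
Each tick is 1 position, placed by its distance from the 5′ end of the gene as a percentage of the genomic span, for the 7 genes with a position (span in kb beside each name). Ticks lie in the last 10% in SUZ12, JARID2, ASXL2 and, but for 2 near its 5′ end, ASXL1, at 81.1 to 83.2% in BCOR, with 4 more from 90.8% on, and at 42.1 to 46.1% in BCORL1, with 2 more at 57.7 and 97.4%, while in CBX2 they spread from 64.8 to 92.9%.

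BCOR, a corepressor first known as a partner of BCL6, had 21 of its 25 positions in a run of 2.73 kb on chromosome X (minus strand), from 40072397 to 40075128. No gap inside this run was longer than 378 nt. The run ended 21.2 kb before the 3′ end of the gene, and 4 further positions followed it, at 40062836, 40055401, 40052174 and 40052022, with scores of 16.8, 3.88, 32.5 and 8.03. Scores in BCOR ran from 0.0689 to 76.8 with a median of 16.8, the highest median of the 7 genes when the higher of 2 scores is used, and 17 of 25 positions were at or above the list's median. The 2 highest, 76.8 at 40072674 and 69.3 at 40072397, lay at the 3′ end of the run. They were followed by 58.0 at 40073890 and 49.1 at 40074420, further upstream in the run.

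BCORL1, the closest relative of BCOR, showed a run of similar extent. It held 15 of 17 positions within 3.11 kb on chromosome X (plus strand), from 130013041 to 130016149, and ended 41.9 kb before the 3′ end. The run consisted of a group of 5 positions and a group of 10, with 1530 nt free of positions between 130013356 and 130014886. Each group contained 1 of the only 2 positions among the 100 with a score of 100 or more, 113 at 130013071 and 125 at 130015832. The next highest score in the gene was 39.7, at 130015421, and the lowest 0.0301, at 130013313. The median was 7.90, below that of the list, so BCORL1 combined the highest scores of the 10 genes with many low ones. Isolated positions at 130025152 and 130056056 scored 8.42 and 7.90.

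CBX2 had all 16 of its positions within 3.0 kb on chromosome 17 (plus strand), from 79784225 to 79787226, beginning 6.91 kb from the 5′ end of the gene and ending 0.757 kb before its 3′ end. Scores ran from 1.06 to 33.4 with a median of 10.9. The highest score belonged to the last position of the gene, 466 nt from its nearest neighbour, whereas the 5′ part was crowded, with 12 positions between 79784225 and 79785388. In this 5′ part the scores at 79784309 and 79784513 were 23.1 and 21.9, and the lowest was 1.66, at 79785336.

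**Figure D3:**
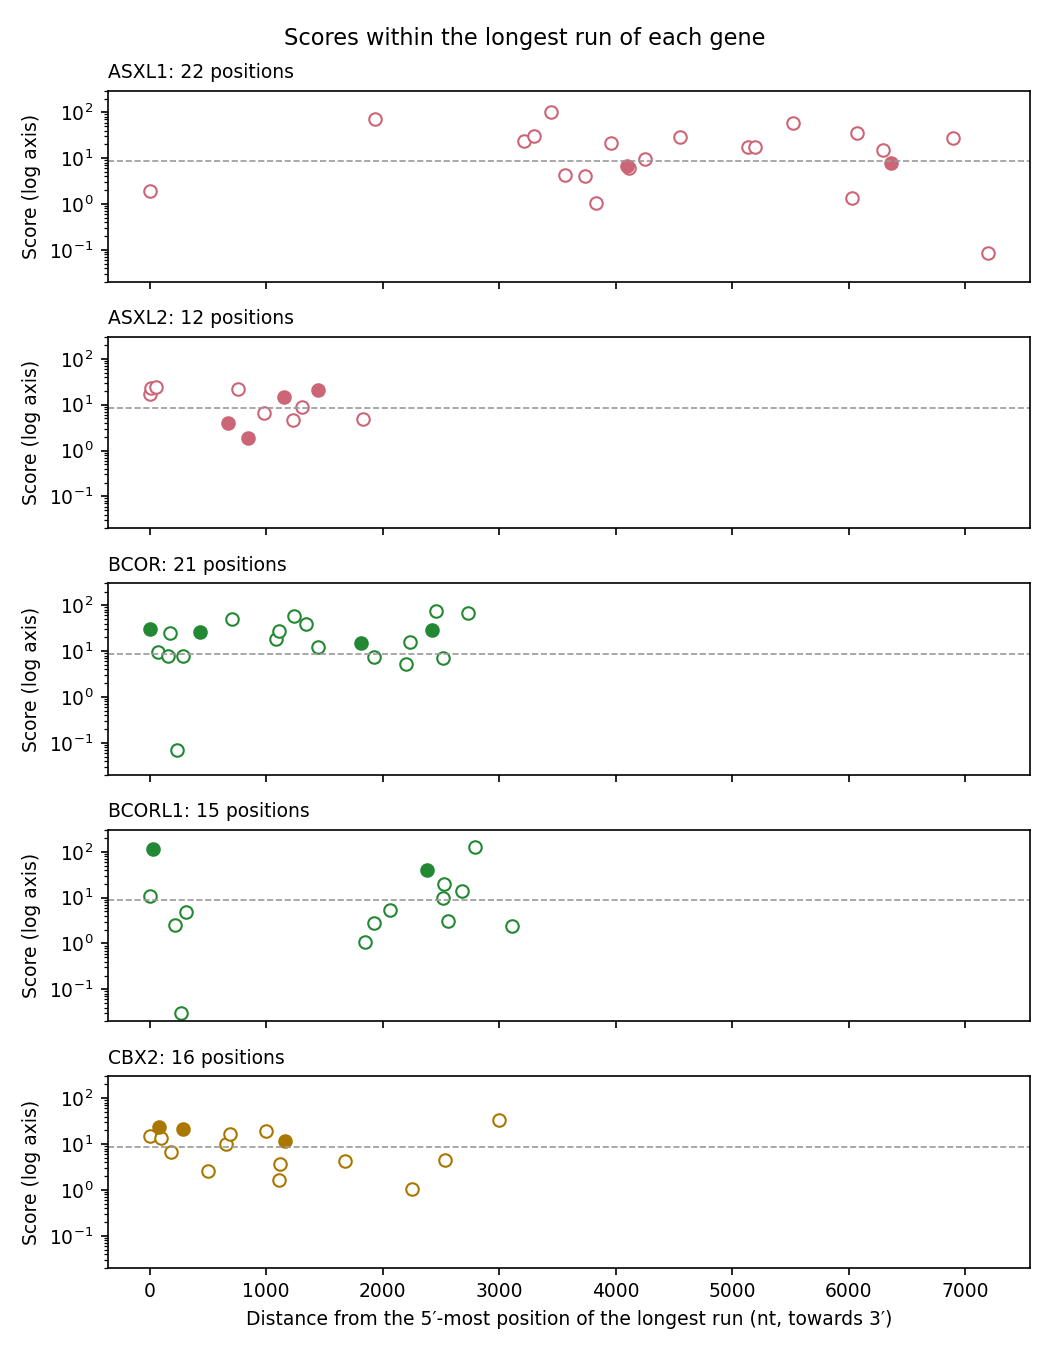
Score of each position (log axis) against its distance in nt from the 5′-most position of the gene's longest run, for ASXL1, ASXL2, BCOR, BCORL1 and CBX2. Filled points are positions given on 2 rows of the list, shown with the higher score, open points those on 1 row, and the dashed line is the list's median score of 8.67; high and low scores are interspersed along the runs, and BCORL1 has a gap of 1530 nt.

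Dense stretches were common among genes with many positions, while runs as defined above were traced only in the 10 genes. The densest 10 kb held 10 or more positions in 5 of the 10 genes, against 3.49% of all protein-coding genes. These are the same 5 genes that have 10 or more positions in total. Of the 988 protein-coding genes with that many, 697 had 10 or more within 10 kb. Genes spanning under 10 kb meet this by construction, and 845 of the 988 spanned at least 10 kb. The densest 10 kb took in 22 of 24 positions in ASXL1, 12 of 12 in ASXL2, 21 of 25 in BCOR, 15 of 17 in BCORL1 and 16 of 16 in CBX2. That is 84.0 to 100% of each gene's positions. For CBX2, which spans only 10.7 kb, such a window covers nearly the whole gene, so its share says little about concentration. In the 845 genes with 10 or more positions and a span of at least 10 kb, these 5 included, the median share was 85.7% (quartiles 63.6 and 100), so the concentration of these 5 genes lay within the usual range. The shortest stretch holding 80% of a gene's positions was 1.31 kb in ASXL2, 1.68 kb in CBX2, 2.52 kb in BCOR, 2.79 kb in BCORL1 and 3.98 kb in ASXL1, against a median of 5.82 kb over the 845 genes (quartiles 1.68 and 27.0). All 5 lay on the shorter side of that median, though between 17.3% and 43.1% of the 845 genes were tighter still. Exon boundaries were not used here, so whether a run fills a single exon, and whether it is coding, was not tested.

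Positions of the 10 genes leaned to the 3′ part of the span about as often as elsewhere. There were 83 of 100 in the 3′ 50% of the span, against 76.4% in all genes spanning 10 kb or more, and 46 of 100 in the last 10%, against 43.6%. The terminal 1 kb was less occupied, with 5 of 100 positions, 2 each in ASXL1 and BCOR and 1 in CBX2, against 13.0%. The first 1 kb held 0 of 100 positions, against 3.30%. Over the last 2 kb the number was 13 of 100, against 24.6%, of which 6 lay in ASXL1, 3 in CBX2, and 2 each in JARID2 and BCOR.

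Neighbouring positions of the same gene lay a median of 133 nt apart in these genes, and 151 nt apart over all genes. A neighbour within 50 nt was found for 31 of 100 positions, against 29.7% in the whole list. By gene the number was 8 in BCOR, 7 each in BCORL1 and CBX2, 6 in ASXL1, 3 in ASXL2 and 0 in JARID2 and SUZ12. The closest pair, 6 nt apart, was in BCORL1 at 130015560 and 130015566, with scores of 9.68 and 19.9. ASXL2 and CBX2 each had a pair 10 nt apart, which in ASXL2 scored 16.8 and 22.8 and in CBX2, at 79785336 and 79785346, scored 1.66 and 3.6. Positions of 1 gene share its transcripts and are not independent of each other.

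Scores of the 100 positions covered most of the range of the list below its upper end. Their median was 9.83 with quartiles of 4.47 and 22.9, against 8.67 with quartiles of 3.75 and 20.8 over all positions. At or above the list's median were 54 of 100, against 50.0%, and at or above its upper quartile 29 of 100, against 25.0%. A score of 100 or more was reached by 2 of 100, against 3.24%, and the maximum of the list, 708, was far above the 125 of BCORL1. Scores under 1 were given to 5 of 100 positions, 2 of them in ASXL1 and 1 each in SUZ12, BCOR and BCORL1, and to 7.11% of the list.

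**Figure D4:**
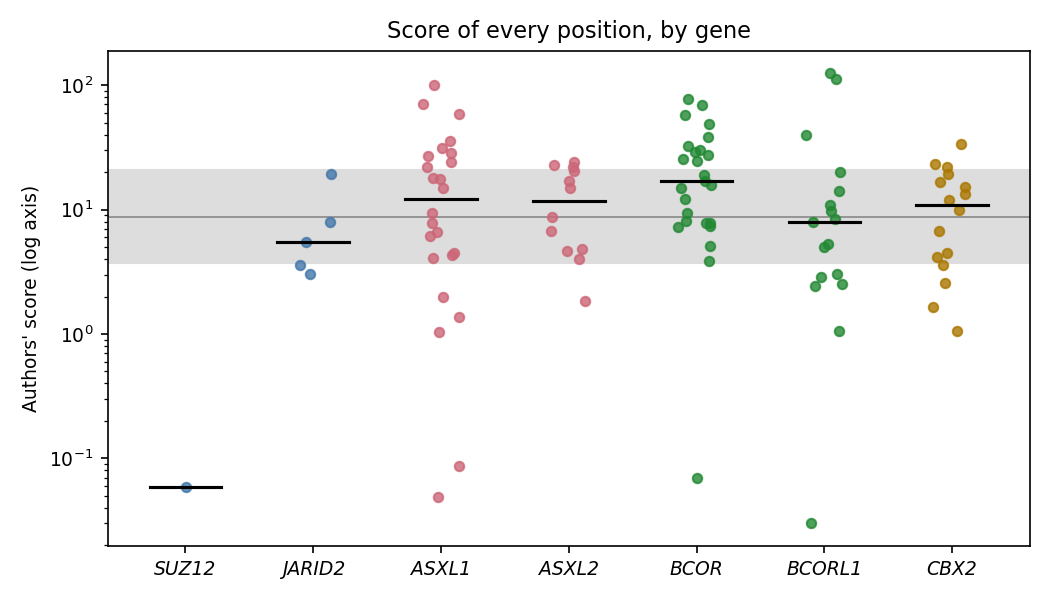
The authors' score of every position (log axis) in the 7 genes with a position, with a black bar at each gene's median. The grey band marks the quartiles of the whole list, 3.75 and 20.8, and the grey line its median of 8.67; medians are above the line in ASXL1, ASXL2, BCOR and CBX2 and below it in SUZ12, JARID2 and BCORL1, an order that changes for CBX2 and BCORL1 with the lower of 2 scores.

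Some positions stood on 2 rows of the list with different scores, and the higher is used above. This applied to 15 of 100 positions, against 14.8% of the list, and they numbered 4 in ASXL2, 4 in BCOR, 3 in CBX2, and 2 each in ASXL1 and BCORL1. Read in row order, the list divides into a shorter part of 8935 rows and a longer part of 34243 rows, neither of them labelled with a treatment, and each of these 15 positions had 1 row in each. The position of BCORL1 at 130013071 was high in both, with 113 in the shorter part and 88.0 in the longer, and that of BCOR at 40075128 had 30.3 and 26.1. Others differed widely. BCOR at 40072704 had 1.80 in the shorter part and 29.3 in the longer, CBX2 at 79784513 had 2.38 and 21.9, and ASXL2 at 25742994 had 14.9 and 1.77. The shorter part gave the higher score at 7 of the 15 positions, and at 28.8% of the 5565 positions with 2 rows in the whole list. With the lower of the 2 scores the gene medians became 12.2 in ASXL1, 12.1 in BCOR, 7.73 in ASXL2, 7.28 in BCORL1 and 5.36 in CBX2, against a list median of 7.02, so that BCOR was no longer first, CBX2 lay below the list and BCORL1 above it. A further 9 of 100 positions were in the shorter part alone, against 8.96%, with 3 of them in BCOR and 2 in BCORL1.

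The rest of the Polycomb system was bound more often than not, at counts that varied widely between genes. Of 53 further genes in 5 lists, 41 had at least 1 position, against 38.9% of all protein-coding genes. In 8 of the 53 there were 10 or more, against 4.95% of all protein-coding genes. Their median over all 53, counting those with 0 positions, was 2. It cannot be set beside the median of 3 given above, which covers only genes with a position. The lists, too, were chosen with earlier results known. Among the 10 PRC2 core and accessory genes, 8 had a position (38.9% of all protein-coding genes did), and the median over all 10 was 1.5. LCOR, whose locus also encodes a PRC2 accessory protein, had 31, the elongin-binding accessory subunit EPOP 10 and the histone chaperone RBBP4 9, while the core subunit EED had 1. EZH1, EZH2, SUZ12 and EED thus had at most 1 position each, but the counts did not follow the division into core and accessory subunits. The core subunits RBBP4 and RBBP7 had 9 and 1, and of the accessory ones MTF2 had 7 and AEBP2 2, PHF19 1, and PHF1 and EZHIP 0.

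In PRC1 the catalytic and PCGF list had a position in 7 of 8 genes, against 38.9% of all protein-coding genes. None of the 8 had 10 or more, against 4.95% of all protein-coding genes, a share too low for 8 genes to show a difference. BMI1, a PCGF subunit, had 7 positions, PCGF3 4 and PCGF5 2, and the ubiquitin ligases RING1 and RNF2 had 2 each. In the list of CBX, PHC, SCM and L3MBTL genes, 11 of 16 had a position, against 38.9% of all protein-coding genes. This list was led by SFMBT2 with 17 and CBX6 with 9. CBX2, with 16, had more positions than CBX6, than CBX8 with 4 and than CBX7 with 0. Positions per kb were 1.5 in CBX2, 0.834 in CBX6 and 0.809 in CBX8, so CBX2 was the highest of these by either measure.

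Partners of the variant PRC1 forms had a position in 8 of 11 genes, against 38.9% of all protein-coding genes. They were led by AUTS2 with 14, FBRS with 10 and FBRSL1 with 8. PCGF1, the subunit that defines the BCOR complex, had 0 positions, its demethylase-family subunit KDM2B 5 and the deubiquitinase USP7 7. BCOR had 25 and BCORL1 17. The spans differ greatly, with 2.65 kb in PCGF1 and 126 kb in BCOR, so the 0 of PCGF1 says little. Per kb of span KDM2B had 0.0288 and USP7 0.0975, against 0.198 in BCOR and 0.219 in BCORL1. In the list of the BAP1 complex and ASXL partners, BAP1 included, 7 of 8 genes had a position, against 38.9% of all protein-coding genes. The list was led by the cell cycle regulator HCFC1 with 21 and the forkhead factors FOXK2 with 18 and FOXK1 with 17. BAP1 itself had 2, the higher of them scoring 169, above any position of ASXL1 or ASXL2. ASXL1 and ASXL2, with 24 and 12, thus had more positions than BAP1, and ASXL3, with 0, had fewer. Per kb of span BAP1 had 0.222, between ASXL1 at 0.296 and ASXL2 at 0.0829.

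**Figure D5:**
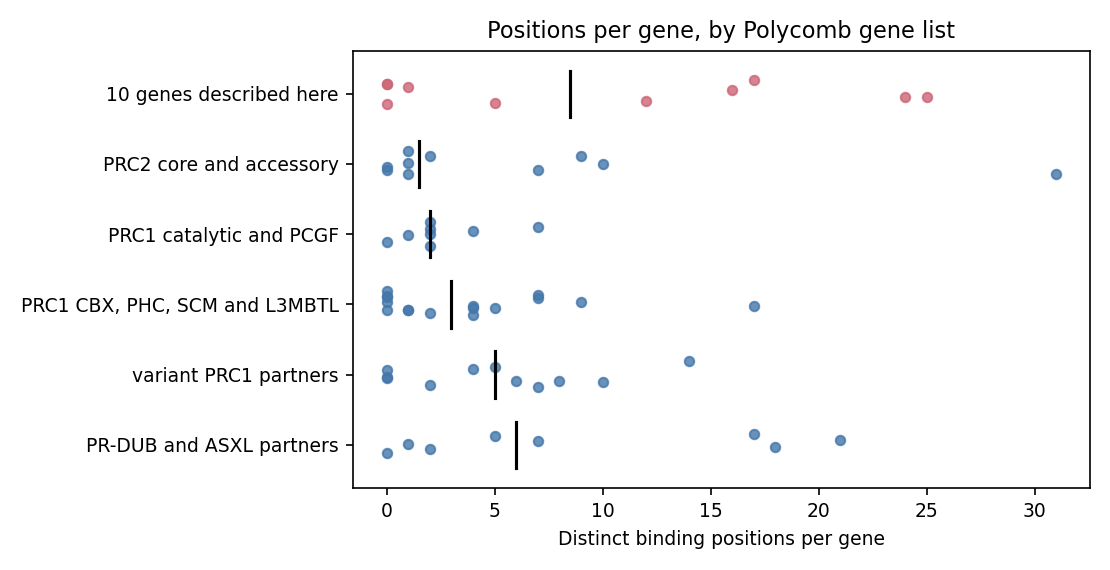
Number of distinct positions per gene (horizontal axis) for the 10 genes described here and for 5 lists of other Polycomb genes; each point is a gene, shifted vertically at random, and the black bar is the median. The 10 genes have a median of 8.5 positions, and the lists have medians of 1.5 to 6, with LCOR at 31 as the highest single gene.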

How the data were processed

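Per the labels, YTHDF2 iCLIP2 libraries were made from 8 HEK293T samples. The authors deposited 1 list without header, giving a position of 1 nt, a strand and a score per row. The normalization of the deposited score, the site caller and the pooling of replicates were not given in the sources used here. Per the submitters' processing notes, FastQC 0.11.8, STAR 2.7.3a, UMI-tools 1.0.0, bedtools 2.27.1 and GRCh38.p12 were used, with no role or order named.

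Rows at 1 position and strand (43178 rows, 37613 positions) were joined with the higher score. Gene spans came from a RefSeq table of GRCh38.p14, whose main chromosomes are those of the earlier patch. Strand came from RefSeq promoter annotation for 15767 genes and from the majority of positions for 1223, CBX2 among them. The other 2965 genes had no strand and so were given no position. They are still counted among all protein-coding genes in the shares above. All 100 positions lay in no other protein-coding gene, and 0 lay on the opposite strand of the 10 genes. No genome sequence, exon or coding annotation was used here, so annotation of sites and sequences around them were not analysed here.

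The 10 genes and all lists were chosen with earlier results of these data known. Named genes are the 10 members and, per list, the 3 with the most positions, of which 1 is not reported here; EED, RBBP7, MTF2, AEBP2, PHF19, PHF1, EZHIP, RING1, RNF2, CBX7, CBX8, PCGF1, KDM2B, USP7 and BAP1 were added after their values were seen. The last 2 kb of all genes, runs, the stretch holding 80% of positions and the shares of the span were also chosen after seeing the data. The assignment was tested on simulated data in 200 genes, all with annotated strand and a longer span than CBX2. The test therefore does not cover CBX2, whose strand came from the majority of positions. Python 3.11.15 and pandas 2.3.3 were used.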

Additional observations from a re-analysis of the deposited data

How the results depend on the processing

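The total of 100 positions became 54 when only positions at or above the list's median score were kept, 29 at or above its upper quartile, and 24 in the shorter part of the list alone, a setting added after seeing the data. Fewer positions enter each of these by construction. It was 91 in the longer part alone, 83 after merging neighbours within 50 nt, and 100 when positions in another protein-coding gene were left out. The number of genes with a position, 7, became 6 with the median, 5 with the upper quartile and 6 with the shorter part. It stayed at 7 with the longer part and with the unshared positions. Shares of all protein-coding genes at these settings are not given here, so these numbers only describe the 10 genes. At the upper quartile BCOR kept 11 positions, ASXL1 9, and ASXL2, BCORL1 and CBX2 3 each. With the lower of 2 scores, the median score of the 100 positions was 7.90 in place of 9.83, that of CBX2 5.36 in place of 10.9 and that of ASXL2 7.73 in place of 11.8, while the list's median was 7.02 in place of 8.67. The last 2 kb of the genes held 13 positions and the last 1 kb 5. The densest stretches held 88 positions with a window of 5 kb and 90 with 10 kb. Exonic length, DRACH motifs and leaving out a replicate were not run. No paired analysis was possible because the list has no values per library, so depth per position is unknown too.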
